A study of Homo sapiens with 6 samples.

Results

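The genes described here encode 10 plasma membrane amino acid transporters, SLC7A5, SLC3A2, SLC1A5, SLC7A11, SLC38A1, SLC38A2, SLC7A1, SLC1A4, SLC43A1 and SLC43A2. They were taken by name from the deposited table of 27394 genes, by a rule that uses no measured value but was set with earlier results of these data known, and all 10 were among the 22189 genes tested. RNA-seq was done in PANC-1, an established pancreatic cancer cell line grown in serum-supplemented medium. The shZDHHC20 group (3 libraries) carried an shRNA against ZDHHC20, a palmitoyl acyltransferase, and the shControl group (3 libraries) was the control of that knockdown. The labels give the treatment as transfection infection, and they do not say whether the replicates came from separate cultures or whether more than 1 shRNA was used, so p-values measure only the spread between these libraries, which may be technical.

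Cells cannot make the essential amino acids and import them through carriers in the plasma membrane. SLC7A5 (LAT1) is the light chain that carries leucine and other large neutral amino acids, in exchange for amino acids inside the cell, and SLC3A2 (CD98 heavy chain) is the glycoprotein that brings it, and the cystine carrier SLC7A11 (xCT), to the cell surface. SLC1A5 (ASCT2) and the sodium-coupled SLC38A1 and SLC38A2 carry glutamine and other neutral amino acids, SLC7A1 carries arginine and lysine, SLC1A4 carries serine and alanine, and SLC43A1 and SLC43A2 let large neutral amino acids pass without a heavy chain. Amino acid shortage raises several of these genes through the transcription factor ATF4, MYC is a known activator of some of them in tumour cells, and imported leucine and arginine are sensed by the mTORC1 kinase at the lysosome.

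Each value is a gene count divided by 1 size factor for its library, called a normalized count here, and was not divided by gene length. Fold changes are differences of mean log2(normalized count + 0.1), shZDHHC20 minus shControl. For genes near 0 these can lie far from the ratio of the means. SLC38A5, at 54.8% of control, had a log2 fold change of -2.64, and SLC3A1, at 151% of control, had -0.47. Fold changes were tested two-sided with limma, with Benjamini-Hochberg adjustment over all 22189 genes, and a gene is called at an adjusted p under 0.05. The normalized counts summed to between 17083277 and 18007664 per library. The size factors, taken as the inverse of the smallest value above 0, lay between 93.9% and 106% of their mean. ZDHHC20 was 2001, 2033 and 1940 in shControl and 872, 779 and 893 in shZDHHC20, 42.6% of control (log2 fold change -1.23, SE 0.0649, adjusted p = 4.36e-07). One library stood apart, shZDHHC20 replicate 2. Over 4136 genes whose mean was 1000 or more, its log2 values differed from those of the other shZDHHC20 libraries with an SD of 0.178 and 0.198, while replicates 1 and 3 differed by 0.0722 and the shControl libraries from each other by 0.0674 to 0.0718. Its mitochondrial share was 4.01%, against 5.28% to 5.52% in the other libraries. All 6 epithelial markers had values above 0 in these libraries, with summed levels of 84429 to 86646 in shControl and 78635 to 79609 in shZDHHC20. Within that list, EPCAM was called higher (72.4 to 525, log2 fold change 2.89, adjusted p = 6.7e-07) and SOX9 lower (3929 to 3127, log2 fold change -0.33, adjusted p = 0.00146), so the sum does not describe each marker. The immune list summed to 0 to 3.01 and 3.76 to 7.42, the acinar list to 6.01 to 6.06 and 15.4 to 26.5, the endocrine list to 0 to 4.04 and 0.939 to 6.36 and the endothelial list to 5.01 to 10.1 and 3.76 to 9.62, in shControl and shZDHHC20. The fibroblast list summed to 3884 to 3959 in shControl and 3115 to 3382 in shZDHHC20, nearly all of it COL1A1. These sums cover 2 of 5 immune, 2 of 6 acinar, 1 of 4 endocrine, 2 of 3 endothelial and 3 of 6 fibroblast markers. The others, among them CD3E, CPA1, INS, PECAM1 and COL1A2, were absent from the deposited genes and could not be analysed. The part of these marker levels in the results was not tested. In bulk libraries, fewer cells of a type and less RNA per cell cannot be told apart.

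With ZDHHC20 silencing, 4 of the 10 transporters fell, SLC7A5, SLC3A2, SLC1A5 and SLC38A2, and none rose at the threshold. Their levels in shZDHHC20 were between 71.7% and 85.9% of shControl. With single libraries left out, between 2 (without shControl replicate 1) and 6 (without shZDHHC20 replicate 2, with SLC7A1 higher) of the 10 were called, and 3 without shControl replicate 2 or 3. Among all genes tested, 2541 (11.5%) were called, 1517 lower (6.84%) and 1024 higher (4.61%), and with single libraries left out the count ranged from 1233 (without shControl replicate 1 or 3) to 4454 (without shZDHHC20 replicate 2). Scaling the libraries to the same total turned the overall split to 1466 higher and 1120 lower, and the 4 transporters stayed called lower. Genes of high level were called more often: of the 4136 whose mean was 1000 or more, 1150 (27.8%) were called, and 8 of the transporters were in that range, of which 4 were called. The groups did not overlap for 8 of the 10 transporters, against 28.6% of all genes tested. That share covers genes of every level and was not computed for genes of high level alone. The median log2 fold change of the 10 was -0.19, against 0.01 over all genes, with 9 below 0 and 1 above.

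**Figure D1:**
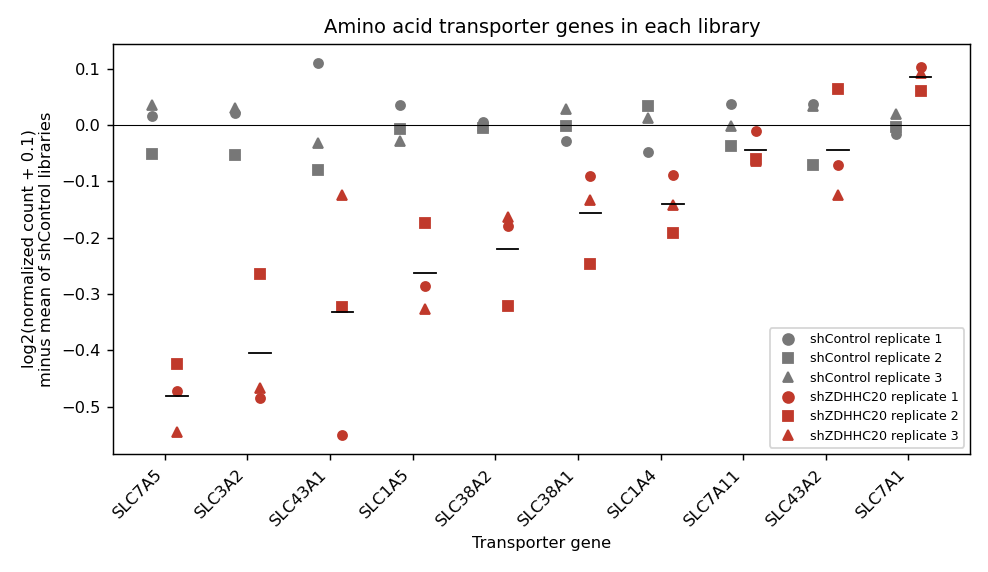
Log2(normalized count + 0.1) of each transporter in each library, as the difference from the mean of the shControl libraries (y axis), with genes ordered by fold change (x axis); grey symbols are shControl, red symbols shZDHHC20, and black lines the shZDHHC20 means. All shZDHHC20 libraries lie below all shControl libraries for SLC7A5, SLC3A2, SLC1A5, SLC38A2, SLC38A1, SLC1A4 and SLC43A1, and above them for SLC7A1.

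SLC7A5, the leucine carrier, had the highest normalized counts of the 10. It was 15399, 14703 and 15617 in shControl and 10985, 11352 and 10445 in shZDHHC20. The groups were far apart, with every shZDHHC20 library below every shControl library. The means were 15239 ± 477 and 10928 ± 456 (SD, n = 3 each), a fall to 71.7% of control (log2 fold change -0.48, SE 0.0456, 95% interval -0.58 to -0.38, limma adjusted p = 2.42e-05). It ranked 80 among all genes by p. The gene (ENSG00000103257) lies on chromosome 16 of GRCh38, minus strand, from 87830023 to 87869488. In 75-base windows of its transcripts, 7.02% were shared with other genes. These were an antisense gene with means of 3.35 and 3.23, SMG1P3 with means of 129 and 128, and SLC7A5P2, which has no measured value here. The levels given are small beside those of SLC7A5.

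SLC3A2, the heavy chain that pairs with SLC7A5 and SLC7A11, fell as well. It was 6046, 5741 and 6081 in shControl and 4254, 4957 and 4308 in shZDHHC20. The groups did not overlap, and the highest shZDHHC20 value was that of replicate 2, the library that stood apart. The means were 5956 ± 187 and 4506 ± 391 (SD, n = 3 each), 75.7% of control (log2 fold change -0.41, SE 0.0594, 95% interval -0.53 to -0.28, adjusted p = 0.000662). Without shZDHHC20 replicate 2 the log2 fold change was -0.48. The call was lost only when the mean-variance trend was left out of the fit (adjusted p = 0.103). The gene (ENSG00000168003) lies on chromosome 11 of GRCh38, plus strand, from 62856102 to 62888875, and shared no 75-base window with another gene.

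SLC1A5, the neutral amino acid exchanger best known for glutamine, fell less. It was 3765, 3657 and 3602 in shControl and 3015, 3256 and 2928 in shZDHHC20, so the groups did not overlap. The means were 3675 ± 82.8 and 3066 ± 170 (SD, n = 3 each), 83.4% of control (log2 fold change -0.26, SE 0.0527, 95% interval -0.38 to -0.15, adjusted p = 0.00582). Without shControl replicate 1 the adjusted p was 0.0521, and without the mean-variance trend 0.145. The gene (ENSG00000105281) lies on chromosome 19 of GRCh38, minus strand, from 46774883 to 46788594. An antisense gene shares 20.3% of its 75-base windows. The library kit is directional, but whether the counting used strand is not given in the sources used here, so reads of SLC1A5 and of genes on the opposite strand in an overlap cannot be told apart.

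SLC38A2 and its paralog SLC38A1 bring glutamine, alanine and other small neutral amino acids into the cell together with sodium. SLC38A2 was 11389, 11298 and 11335 in shControl and 10022, 9077 and 10133 in shZDHHC20. The groups did not overlap, and the shControl libraries lay close together. The means were 11341 ± 45.8 and 9744 ± 580 (SD, n = 3 each), 85.9% of control (log2 fold change -0.22, SE 0.0482, 95% interval -0.32 to -0.12, adjusted p = 0.00956). The call of SLC38A2 was lost without shControl replicate 1, 2 or 3 (adjusted p = 0.0654, 0.0588 and 0.0620) and without the mean-variance trend (0.191). SLC38A1 was 9442, 9627 and 9829 in shControl and 9050, 8119 and 8783 in shZDHHC20. The groups did not overlap either, at 89.8% of control, but the adjusted p of 0.0543 missed the threshold (log2 fold change -0.16, SE 0.0483, 95% interval -0.26 to -0.05). Without shZDHHC20 replicate 2, in which both paralogs were lowest, SLC38A1 was called at a smaller log2 fold change of -0.11 (adjusted p = 0.00707), and that of SLC38A2 was -0.17. SLC38A1 was also called with a pseudocount of 1 (adjusted p = 0.0481), with a mean of at least 5 (0.0423) and with robust moderation (0.0309). SLC38A2 (ENSG00000134294, 46358189 to 46372867) and SLC38A1 (ENSG00000111371, 46183063 to 46270017) lie on the minus strand of chromosome 12 of GRCh38, and neither shared a 75-base window with another gene.

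The other 5 transporters were not called. SLC1A4, the serine and alanine exchanger closest to SLC1A5, was 1850, 1958 and 1928 in shControl and 1798, 1674 and 1733 in shZDHHC20. These groups did not overlap, but the difference was small (log2 fold change -0.14, SE 0.0548, 95% interval -0.26 to -0.02, adjusted p = 0.129). SLC7A11, the cystine carrier that supplies glutathione synthesis, was 1802, 1710 and 1752 in shControl and 1743, 1682 and 1679 in shZDHHC20. Its groups overlapped (log2 fold change -0.04, SE 0.0533, adjusted p = 0.673), with a 95% interval of -0.16 to 0.07. The difference between its fold change and that of its heavy chain SLC3A2 was not tested. SLC7A11-AS1, an antisense gene that shares 7.46% of its windows, had means of 13.4 and 20.2 and was not called (adjusted p = 0.347).

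SLC7A1, the arginine and lysine carrier, was the one transporter with higher values after silencing. It was 3778, 3810 and 3871 in shControl and 4103, 3984 and 4071 in shZDHHC20, with all shZDHHC20 values above all shControl values. The difference did not pass the threshold (log2 fold change 0.09, SE 0.0450, 95% interval -0.01 to 0.18, adjusted p = 0.275). It passed the threshold only without shZDHHC20 replicate 2 (log2 fold change 0.10, adjusted p = 0.0381). The log2 fold change of SLC7A1 was above 0 under all 16 alternatives, between 0.08 and 0.13.

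The facilitators of large neutral amino acids were the lowest of the 10. SLC43A1 was 94.0, 82.4 and 85.1 in shControl and 59.4, 69.5 and 79.9 in shZDHHC20. All shZDHHC20 values were below the shControl values, but at this level the spread was wide (log2 fold change -0.33, SE 0.171, 95% interval -0.70 to 0.04, adjusted p = 0.263). SLC43A2 was 942, 874 and 939 in shControl and 873, 960 and 842 in shZDHHC20. Its groups overlapped (log2 fold change -0.04, SE 0.0700, 95% interval -0.19 to 0.11, adjusted p = 0.765). In SLC43A2, 1.70% of the 75-base windows were shared with other genes.

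**Figure D2:**
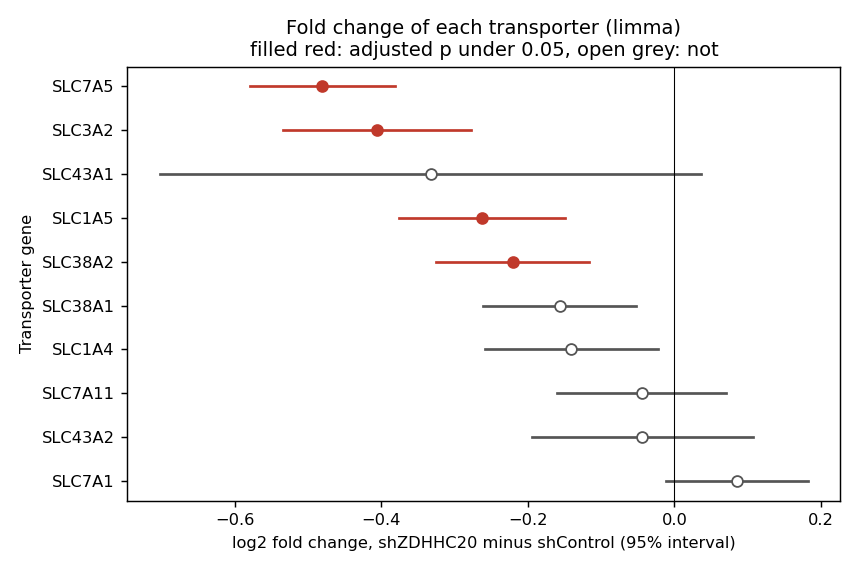
Log2 fold change of each transporter, shZDHHC20 minus shControl (x axis), with its 95% interval from limma; filled red points have an adjusted p under 0.05 and open grey points do not. SLC7A5 at -0.48 and SLC3A2 at -0.41 are the lowest, SLC43A1 has the widest interval, and SLC7A1 at 0.09 is the one point above 0.

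Levels of different genes were compared per kilobase of exon union (the length covered by any exon of the gene). In shControl the order of the mean levels per kilobase was SLC7A5 (3212 ± 101), SLC38A2 (1718 ± 6.93), SLC3A2 (1150 ± 36.1), SLC1A5 (1103 ± 24.8), SLC38A1 (962 ± 19.3), SLC7A1 (497 ± 6.12), SLC1A4 (276 ± 8.06), SLC7A11 (182 ± 4.74), SLC43A2 (86.6 ± 3.63) and SLC43A1 (24.7 ± 1.72; SD, n = 3 each). The level per kilobase of SLC7A5 was above that of 99.3% of the genes tested, and that of SLC43A1 above 48.2%. SLC3A2 and SLC1A5 overlapped between libraries in shControl, and all other neighbours in the order were apart. In shZDHHC20 the mean levels per kilobase were 2303 ± 96.1 for SLC7A5 and 1476 ± 87.9 for SLC38A2. Below them, SLC1A5 (920 ± 51.0), SLC3A2 (870 ± 75.5) and SLC38A1 (864 ± 47.9) overlapped from neighbour to neighbour, and the order of the others was as in shControl. The place of SLC3A2 rests on the length used, since its exon union is 5178 bases and its longest transcript 2222. With the longest transcript as the length, its shControl level was 2680 per kilobase, second after SLC7A5 at 3359.

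The ratio of the light to the heavy chain of the leucine carrier overlapped between the groups. The ratio of SLC7A5 to SLC3A2 per kilobase was 2.78, 2.79 and 2.80 in shControl and 2.82, 2.50 and 2.65 in shZDHHC20. The ratio of SLC7A11 to SLC3A2 per kilobase was 0.160, 0.160 and 0.155 in shControl and 0.220, 0.182 and 0.209 in shZDHHC20. Here the shZDHHC20 values were all above the shControl values. Summed per kilobase, the 10 transporters came to between 9038 and 9321 in shControl and between 7379 and 7556 in shZDHHC20. SLC7A5 made up 34.3% to 35.3% of that sum in shControl and 29.8% to 31.7% in shZDHHC20. The sizes of these ratios, sums and shares rest on the length used. With the longest transcript, the shControl levels per kilobase were 3359 for SLC7A5 and 2680 for SLC3A2, which lie much closer together. These ratios, sums and shares are given as a description, since an exact two-sided permutation test with 3 libraries against 3 cannot give a p below 0.1.

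The genes whose pattern over the 6 libraries was most like that of SLC7A5 were sought among 10907 genes with a mean of at least 100, by the root mean square difference of their centred log2 values. They were PLAU (0.0264), POMGNT2 (0.0288), THAP11 (0.0298), NPTXR (0.0303) and NFKBIA (0.0321). PLAU, the urokinase gene, went from a mean of 4783 to 3406, and NFKBIA, an inhibitor of NF-kappa-B, from 853 to 618. By the same measure SLC3A2 was at rank 72 and SLC1A5 at rank 656, while SLC38A2 was at rank 1491 and SLC7A1 at rank 6734. The likeness is a description over 6 libraries that share 1 contrast.

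The sequences before the start sites are shown for SLC7A5 and SLC3A2, the pair that fell most, and for SLC7A1, which did not fall. They are RefSeq promoter windows on GRCh38.p14, 250 bases before to 50 bases after a start site, read 5′ to 3′ on the strand of the gene. Capitals mark matches, on either strand, to the E-box CACGTG (a motif of MYC and other factors), the C/EBP-ATF response element TGATGNAA (a motif of ATF4) and the antioxidant response element TGACNNNGC (a motif of NFE2L2). The window of SLC7A5 is chr16:87869458-87869757 on the minus strand, that of SLC3A2 is chr11:62881449-62881748 on the plus strand, 1 of its 3 windows, and that of SLC7A1 is chr13:29595639-29595938 on the minus strand.
SLC7A5: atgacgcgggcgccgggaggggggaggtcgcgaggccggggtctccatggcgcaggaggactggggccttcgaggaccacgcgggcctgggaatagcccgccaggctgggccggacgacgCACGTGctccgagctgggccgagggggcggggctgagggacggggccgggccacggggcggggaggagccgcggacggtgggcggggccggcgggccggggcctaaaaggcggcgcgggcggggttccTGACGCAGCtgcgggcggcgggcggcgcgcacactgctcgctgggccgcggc
SLC3A2: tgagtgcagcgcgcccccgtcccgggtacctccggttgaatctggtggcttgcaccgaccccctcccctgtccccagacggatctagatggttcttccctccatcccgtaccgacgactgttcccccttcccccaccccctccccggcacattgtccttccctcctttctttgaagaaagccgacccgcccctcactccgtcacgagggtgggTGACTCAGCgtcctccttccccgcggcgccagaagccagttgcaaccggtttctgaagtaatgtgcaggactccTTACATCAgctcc
SLC7A1: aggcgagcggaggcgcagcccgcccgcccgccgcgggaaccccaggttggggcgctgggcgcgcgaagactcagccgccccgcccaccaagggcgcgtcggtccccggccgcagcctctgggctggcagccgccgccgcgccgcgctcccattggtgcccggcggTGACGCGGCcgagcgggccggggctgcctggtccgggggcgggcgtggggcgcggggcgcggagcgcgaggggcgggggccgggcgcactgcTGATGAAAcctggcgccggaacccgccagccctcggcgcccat

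The SLC7A5 window holds an E-box that begins 130 bases before the start site and an antioxidant response element that begins 2 bases before it. The SLC3A2 window holds an antioxidant response element 37 bases before the start site and a C/EBP-ATF response element at base 38 after it. The other SLC3A2 windows, among them that at the annotated 5′ end of the gene, hold no match. The SLC7A1 window holds an antioxidant response element 85 bases before the start site and a C/EBP-ATF response element at base 8 after it. No matches overlap in these 3 windows. The table holds 18 windows for 9 of the transporters, and SLC7A11 has no entry. An E-box was found in 3 of the 18, a C/EBP-ATF response element in 5 and an antioxidant response element in 4. Among all 35116 windows of that length, the shares were 7.26%, 3.62% and 13.3%. Of the fallen genes, SLC1A5 has matches in 2 of its 3 windows and SLC38A2 has none in its single window. The 2 SLC1A5 windows with matches lie inside the annotated gene. The SLC1A5 window at its annotated 5′ end, chr19:46788545-46788844, holds none. Matches thus stood in windows of genes that fell and of genes that did not, and they are a description of letters, not of binding.

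Other plasma membrane amino acid transporters were compared next. Of 31 on the list, 16 could be tested, 12 with a log2 fold change below 0 and 4 above. Their median was -0.31, against -0.19 for the 10 transporters. Most were very low, and only 6 of the 16 had a mean of at least 10, which limits what could be called. The signs and the median of the 16 therefore rest largely on genes near 0. SLC3A1 counts as below 0 although its mean went from 1.34 to 2.02. The 6 had log2 fold changes from -0.42 (SLC7A2) to 0.23 (SLC6A17), so the 2 medians are not a like comparison. The limma fit called 0 of the 16, with 3 at an unadjusted p under 0.05, against 5286 of all 22189 genes. The most abundant of those 3 was SLC6A6, the taurine transporter, named after its values were seen, at 3500, 3509 and 3764 in shControl and 3131, 3473 and 3078 in shZDHHC20 (log2 fold change -0.16, SE 0.0574, adjusted p = 0.109). Its groups did not overlap. The other 2 had higher values in shZDHHC20, SLC6A17 with means of 296 and 346 (log2 fold change 0.23, SE 0.0905, adjusted p = 0.141) and SLC1A2 at a very low level with means of 0.667 and 3.25. Without shZDHHC20 replicate 2, SLC6A6 and SLC7A6 were called lower.

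Of the lysosomal amino acid transporters, 11 were tested and 2 called (18.2%), in opposite directions, against 11.5% of all genes tested. SLC36A1, a proton-coupled exporter of small amino acids, went from 449 to 353 (log2 fold change -0.34, SE 0.101, adjusted p = 0.0453). SLC38A7, a lysosomal glutamine and asparagine exporter, went from 332 to 406 (log2 fold change 0.29, SE 0.0871, adjusted p = 0.0481). Both stood near the threshold, and the count was 0 without shControl replicate 1 or 3 or shZDHHC20 replicate 1 or 3, and 1 without shControl replicate 2. The median log2 fold change of the list was 0.06, against -0.19 for the 10 plasma membrane transporters.

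In the list of the amino acid response and ATF4 targets, 9 of 23 genes were called (39.1%), 8 lower and 1 higher. The share of all genes tested was 11.5%, and the median log2 fold change of the list was -0.14. CHAC1, a glutathione-degrading enzyme, fell from 1330 to 936 (log2 fold change -0.51, SE 0.0745, adjusted p = 0.000639), and DDIT4, an inhibitor of mTORC1, fell from 3186 to 2217 (-0.53, SE 0.0854, adjusted p = 0.00126). EIF2AK4, the kinase that senses uncharged tRNA, fell from 1190 to 936 (-0.35, SE 0.0674, adjusted p = 0.00457), and STC2, a secreted glycoprotein, from 10303 to 8033 (-0.37, SE 0.0728, adjusted p = 0.00531). PSAT1 and PHGDH, enzymes of serine synthesis, fell by 0.30 and 0.25 on the log2 scale. The single gene higher was TRIB3, a pseudokinase induced in amino acid shortage and named after its values were seen, which rose from 3707 to 4211 (0.18, SE 0.0485, adjusted p = 0.0258). ATF4 itself was 6791, 6925 and 6923 in shControl and 6248, 6793 and 6404 in shZDHHC20, with overlapping groups (-0.09, SE 0.0459, adjusted p = 0.277). ASNS, the asparagine synthetase gene and a classical ATF4 target, also named after its values were seen, was level at 196 and 202 (adjusted p = 0.865). Without shZDHHC20 replicate 2 ATF4 was called lower (-0.12, adjusted p = 0.00482) and the list count was 14. Without shZDHHC20 replicate 1 the count was 5, and STC2 was among those lost (adjusted p = 0.0517). TRIB3 was not called without shControl replicate 1, 2 or 3 or shZDHHC20 replicate 1 (adjusted p up to 0.141).

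Of the amino acid synthesis enzymes, 6 of 29 were called (20.7%, against 11.5% of all genes tested), all lower. The median log2 fold change of the list was -0.06. GLUD1, the mitochondrial glutamate dehydrogenase, fell from 3318, 3313 and 3203 in shControl to 2005, 1902 and 2161 in shZDHHC20. The groups were far apart, at 61.7% of control (log2 fold change -0.70, SE 0.0565, adjusted p = 8.08e-06). The one-carbon enzymes MTHFD1L (2724 to 2092, log2 fold change -0.38) and SHMT2 (2401 to 1905, -0.34) and the branched-chain aminotransferase BCAT1 (263 to 190, -0.46) were the others, with PSAT1 and PHGDH. SHMT2 lost its call without shControl replicate 2 or shZDHHC20 replicate 1 (adjusted p up to 0.0568) and BCAT1 without shControl replicate 2 or 3 or shZDHHC20 replicate 1 (up to 0.123). Without shZDHHC20 replicate 2 the count was 11.

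Of the genes for amino acid sensing by mTORC1, 4 of 37 were called (10.8%), close to the share of all genes. RHEB, the GTPase that activates mTORC1, fell from 1907 to 1529 (log2 fold change -0.32, SE 0.0556, adjusted p = 0.00224), and MLST8, a subunit of the complex, from 1377 to 1146 (-0.27). SESN1, a member of the leucine-sensing sestrin family, rose from 257 to 344 (0.42, SE 0.0925, adjusted p = 0.00958), and FNIP2, a partner of folliculin, from 368 to 445 (0.28). MLST8 was not called without shControl replicate 1, 2 or 3 or shZDHHC20 replicate 1 (adjusted p up to 0.168), FNIP2 without any single library but shZDHHC20 replicate 2 (up to 0.181), and SESN1 without shControl replicate 3 (0.0641). The count was 1 or 2 without shControl replicate 1, 2 or 3 or shZDHHC20 replicate 1, and 9 without shZDHHC20 replicate 2.

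Genes of glutathione and cystine use, downstream of SLC7A11, gave 7 lower and 0 higher calls of 20 (35.0%, against 11.5% of all genes tested). The median log2 fold change of the list was -0.16, while SLC7A11, a member of the list, was not called. TXNRD1, the cytosolic thioredoxin reductase, fell from 5445 to 4244 (log2 fold change -0.36, SE 0.0462, adjusted p = 0.00025). GSR, the glutathione reductase, fell from 644 to 467 (-0.46, SE 0.0804, adjusted p = 0.00219), next to CHAC1, NQO1 (-0.26) and ACSL4 (-0.24). NFE2L2, a known activator of antioxidant genes such as NQO1 and TXNRD1, was 3078, 3076 and 3112 in shControl and 3093, 2700 and 3301 in shZDHHC20. Its groups overlapped (-0.03, SE 0.0658, adjusted p = 0.823), and its sign turned under quantile normalization, scaling to the same total and without shZDHHC20 replicate 2. NQO1 was not called without shControl replicate 2 (adjusted p = 0.052), nor ACSL4 without shControl replicate 1, 2 or 3 or shZDHHC20 replicate 1 (up to 0.160). The list count was 4 without shControl replicate 2 and 11 without shZDHHC20 replicate 2.

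Among 12 known partners and regulators of the transporters, 4 fell and 1 rose (41.7% called, against 11.5% of all genes tested). MYC was 1797, 1845 and 1969 in shControl and 1270, 1231 and 1218 in shZDHHC20, 66.3% of control (log2 fold change -0.59, SE 0.0576, adjusted p = 2.79e-05). BAP1, a deubiquitinase known to repress SLC7A11, fell from 2008 to 1315 (-0.62, SE 0.0760, adjusted p = 0.000176). LAPTM4B, which brings the SLC7A5 and SLC3A2 pair to lysosomes, fell from 3645 to 2647 (-0.47, SE 0.0681, adjusted p = 0.00064). BSG (basigin), a membrane glycoprotein found in complexes with CD98, went from 11318 to 9993 (-0.18, SE 0.0456, adjusted p = 0.0212), and ITGB1, the integrin subunit that binds the CD98 heavy chain, rose from 27168 to 31430 (0.21, SE 0.0503, adjusted p = 0.0171). BSG and ITGB1 were called only without shZDHHC20 replicate 2 when single libraries were left out (adjusted p up to 0.135 and 0.103), so that the list count was 3 without any of the other 5 libraries. BSG was also not called under quantile normalization and scaling to the same total.

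**Figure D3:**
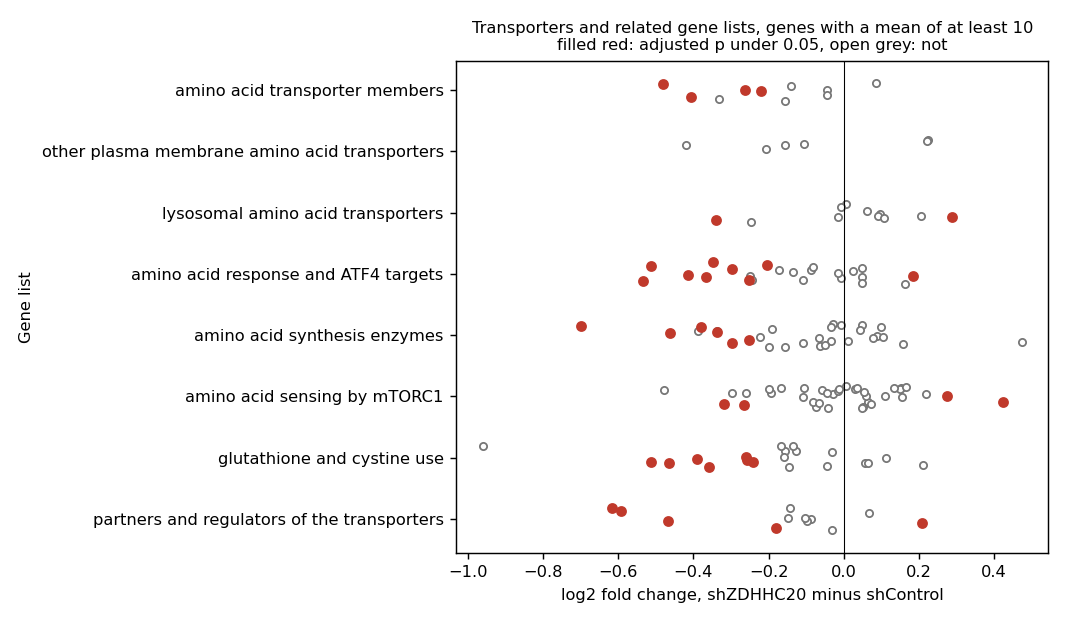
Log2 fold change, shZDHHC20 minus shControl (x axis), of the 10 transporters and of 7 related lists (y axis), for genes with a mean of at least 10 normalized counts; filled red points have an adjusted p under 0.05 and open grey points do not. Called genes of the amino acid response, synthesis and glutathione lists lie mostly below 0. No other plasma membrane transporter is called, and 6 of the 16 tested are drawn.

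Over the 7 lists, 137 distinct genes outside the 10 transporters were tested and 30 were called (21.9%), 25 lower and 5 higher. The share called was 11.5% of all genes tested and 27.8% of those with a mean of 1000 or more. Whether the lists differ from other genes of like level was not tested. Of the 30 called list genes, 14 stayed called when any single library was left out, all of them lower. Among them were MYC, BAP1, LAPTM4B, CHAC1, DDIT4, EIF2AK4, PSAT1, PHGDH, MTHFD1L, GLUD1, RHEB, GSR and TXNRD1. Among the transporters, SLC7A5 and SLC3A2 stayed called in all 6 such fits, and SLC1A5 and SLC38A2 did not.

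**Figure D4:**
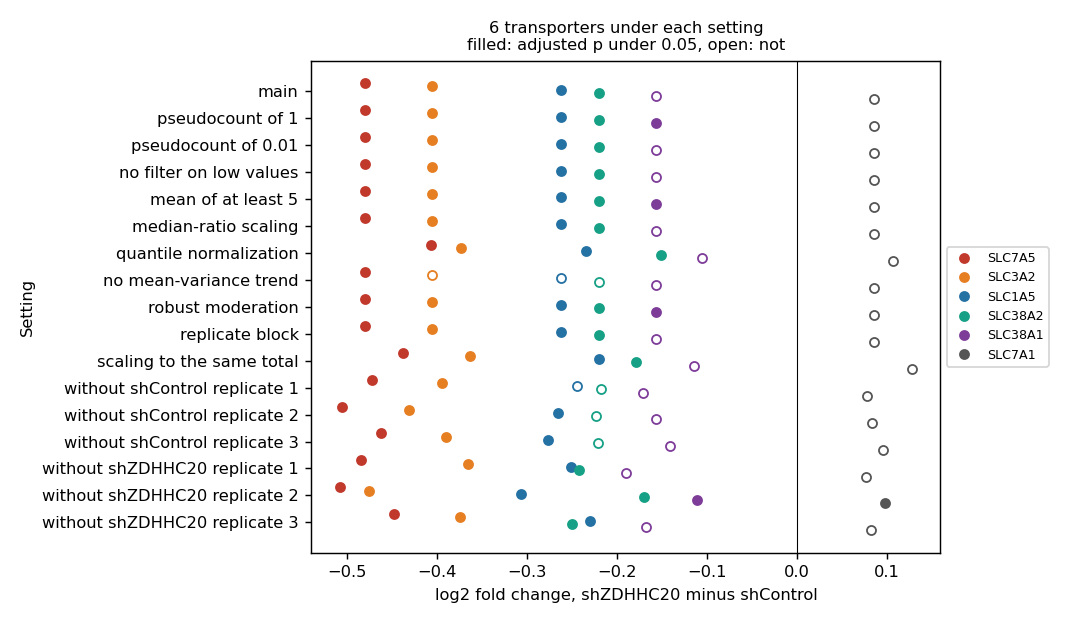
Log2 fold change of 6 transporters (x axis) in the reported fit and under each of 16 alternative settings (y axis); filled points have an adjusted p under 0.05 and open points do not. SLC7A5 is filled in every row, SLC7A1 only without shZDHHC20 replicate 2, and no transporter changes its sign.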

How the data were processed

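PANC-1 RNA-seq libraries, 3 shControl and 3 shZDHHC20, were analysed from the table the authors deposited. The submitters' processing notes name the build hg 19, and the aligner, counting tool and normalization are not given in the sources used here. The deposited signal is named as FPKM, but 100% of the values in each library were whole multiples of its smallest value above 0 (tolerance 0.01), so they were read as gene counts divided by 1 size factor, without division by length. The columns, named siZDHHC20 and NC, were assigned to samples through their group and number. Analyses used R 4.3.3, limma 3.58.1, data.table version 1.17.8, Python 3.11.15, pandas 2.3.3 and matplotlib 3.10.9.

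A test planned for FPKM was kept unchanged for this signal. A pseudocount of 0.1 was added before log2, genes with a mean of at least 1 were kept, and limma was fitted with group as its term and eBayes with a mean-variance trend. The script was tested on simulated data. Gene positions, exon lengths and transcripts came from GENCODE 29 on GRCh38. The transporters and gene lists were chosen with earlier results of these data known. Besides the transporters, ZDHHC20, MYC, ATF4 and NFE2L2, the named genes were up to 6 called genes per list, taken by adjusted p from the lowest up, and the 5 genes most like SLC7A5. The alternatives were other pseudocounts, filters, scalings and moderation, a replicate block, leaving out each library, and the longest transcript as length. Scaling to the same total was chosen after the data were seen. Raw counts were not used, so no counting intervals are given. Results for some single genes are left out here.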

Additional observations from a re-analysis of the deposited data

How the results depend on the processing

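All 10 transporters kept the sign of their log2 fold change under all 16 alternatives, and SLC7A5 stayed called in each of them (log2 fold change from -0.51 to -0.41, highest adjusted p = 0.0497). SLC3A2 was called in 15, SLC1A5 in 14 and SLC38A2 in 12. The step that mattered most was the mean-variance trend of limma. Without it 351 genes in all were called, 1 transporter (SLC7A5), 0 lysosomal transporters, 0 amino acid response genes, 1 synthesis enzyme (GLUD1), 0 mTORC1 sensing genes, 0 glutathione genes and 1 partner (MYC). The lysosomal count was 1 with a pseudocount of 0.01, with no filter, with quantile normalization and with scaling to the same total. The replicate numbers were not found to pair the samples, since the deviations of same-numbered libraries correlated at -0.0948, -0.156 and -0.0771, and with a replicate block 1942 genes were called, the same 4 transporters, 0 lysosomal transporters, 2 mTORC1 sensing genes and 6 amino acid response genes, all lower, without TRIB3, and BSG was not called. NFE2L2 turned its sign, to 0.0061 under quantile normalization (adjusted p = 0.967), 0.0101 with scaling to the same total (0.944) and 0.0489 without shZDHHC20 replicate 2 (0.422). Its lowest value with a library left out was -0.096, without shZDHHC20 replicate 3.

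When single libraries were left out, the count of genes called ranged from 1233 to 4454 (the latter without shZDHHC20 replicate 2), of the 10 transporters from 2 (without shControl replicate 1) to 6 (without shZDHHC20 replicate 2) and of the other plasma membrane transporters from 0 to 2. The lysosomal count ranged from 0 to 2, that of the amino acid response from 5 to 14, of synthesis enzymes from 4 to 11, of mTORC1 sensing from 1 to 9, of glutathione and cystine use from 4 to 11 and of partners and regulators from 3 to 7. The cause of these changes was not tested. With the longest transcript as length, 9 of the 10 levels per kilobase in shControl rose by more than 1 SD. Raw counts were not used here, and the low level of SLC43A1 limits its precision most.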
